A study of Rattus norvegicus with 6 samples.

Results

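Collagen crosslinking and hydroxylating enzymes were followed in primary rat cells of the nucleus pulposus, the soft centre of the intervertebral disc. The set holds 10 genes taken by symbol: the 5 lysyl oxidase genes Lox, Loxl1, Loxl2, Loxl3 and Loxl4, the 3 lysyl hydroxylase genes Plod1, Plod2 and Plod3, and the prolyl 4-hydroxylase alpha subunit genes P4ha1 and P4ha2. All 10 were found among the 17139 genes of the count table, and all 10 passed the filter on low counts. Polyadenylated RNA was sequenced from untreated cells (control, n = 3 libraries) and from cells that received bradykinin, a peptide hormone of the kinin system, at 10 µM (n = 3 libraries). Titles of the treated libraries read B2R; groups follow the treatment label, bradykinin. Treatment time, rat strain, age, sex and passage, and whether replicates came from separate animals or cultures, are not given in the sources used here, so p-values reflect only library-to-library spread, possibly of technical origin. The comparison asks which transcripts differ between treated and untreated cells.

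A collagen chain is modified before and after it leaves the cell. In the endoplasmic reticulum, prolyl 4-hydroxylases hydroxylate prolines, which lets the triple helix hold at body temperature, and lysyl hydroxylases hydroxylate lysines. Both enzyme families need iron, 2-oxoglutarate, oxygen and ascorbate. Outside the cell, the copper-dependent lysyl oxidases convert lysines and hydroxylysines to aldehydes, which then form the covalent crosslinks of collagen and, from lysines, of elastin. In the disc these crosslinks give fibrillar collagen its resistance to stretch.

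Total counts per library were 12883067 to 15462764, and the 10 genes together took 0.415% to 0.526% of them. The lowest count of any of these genes in a library was 382 (Loxl4). Bradykinin replicate 3 stood apart across genes: its log2 deviations from the mean of the remaining libraries had an SD of 0.61, while those of the other 5 had SDs of 0.25 to 0.29. Of 17 nucleus pulposus markers 12 were matched, with Acan, Pax1 and Cd24 present and the cartilage collagen gene Col2a1 under 1 CPM in every library; the keratin gene Krt8 was at 0.788 to 1.76 CPM, and the notochord marker Tbxt was not matched. Their summed level was 1371 to 1457 CPM with bradykinin and 1117 to 1149.9 CPM in controls, but 5 of the 11 tested had a positive log2 fold change (median -0.07) and 0 passed. Acan was at 498, 511 and 301 CPM against 262 ± 8.31 CPM and Bsg at 435, 474 and 689.8 CPM against 413 to 435 CPM, while Car3 was at 2.60 to 3.58 CPM against 7.66 to 8.49 CPM and Pax1 at 82.3 to 94.7 CPM against 97.1 to 117 CPM. All 4 matched endothelial markers were under 1 CPM, and 3 of 4 matched macrophage markers were. Smooth muscle markers summed to 2243, 2280.2 and 3132 CPM in bradykinin replicates 1, 2 and 3 and 3033 to 3161 CPM in controls. Acta2 and Tagln made up most of this sum, and Des went the other way, at 34.9, 34.1 and 46.1 CPM against 24.8 to 25.4 CPM. Of the 6 tested smooth muscle markers, 2 had a positive log2 fold change in the 6 libraries, beside 6372 of all 12413 tested genes. Schwann cell markers summed to 19.8, 26.4 and 33.5 CPM against 31.0 to 35.1 CPM. The 11 fibroblast markers, collagen genes included, summed to 65796 to 82115 CPM with bradykinin and 69787 to 74803 CPM in controls. The 6 matched osteoblast markers summed to 56.8, 58.5 and 37.6 CPM against 59.8 to 61.1 CPM, with 4 of them under 1 CPM. Runx2, most of that sum, was at 48.0, 50.4 and 27.1 CPM against 56.2 ± 0.37 CPM. Ibsp went the other way, at 8.04, 7.19 and 9.44 CPM against 3.11 to 4.42 CPM. The 9 matched chondrocyte markers summed to 10.3 to 11.2 CPM and 10.2 to 12.2 CPM. The part of these differences in the results below was not tested. In bulk RNA, fewer cells of a type and less RNA per cell cannot be told apart.

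With all 6 libraries, none of the 10 enzyme genes passed the test, which does not show that they were unchanged. Among them, 3 lysyl oxidase genes, Lox, Loxl2 and Loxl4, split the treated libraries. Each of these 3 was higher in bradykinin replicates 1 and 2 than in any control and lower in replicate 3 than in any control. A fit without replicate 3, the library on the lower side, is an alternative to the main fit of all 6 libraries. In that alternative the 3 genes were called higher, by log2 fold changes of 0.24 ± 0.05 (SE), 0.29 ± 0.04 and 0.50 ± 0.08. Loxl1 and Loxl3 lay on the lower side in both fits, and P4ha2, P4ha1 and Plod3 on the higher side, without passing the test in either; by library totals alone, P4ha1 without replicate 3 stood at -0.0017. Levels are given as CPM, counts relative to the scaled library size. They are not compared between genes, since transcript lengths were not used here.

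A gene was called at an adjusted p (edgeR quasi-likelihood, Benjamini-Hochberg over every tested gene) of 0.05 or less. In the 6 libraries 0 of 10 enzyme genes were called, beside 0.00% of the 12413 genes tested. At an unadjusted p under 0.05 stood 0 of 10, beside 6.84% of all genes, and DESeq2 and limma-voom also had 0 of 10 there, beside 6.11% and 6.83%. DESeq2 called 0 of 10 after adjustment (0.354% of all genes). The 95% intervals of all 10 log2 fold changes included 0, the widest being that of Loxl4 (-0.48 to 0.88) and the narrowest that of P4ha1 (-0.14 to 0.28). Without bradykinin replicate 3, 3 of 10 were called, all of them higher, where 3.10% of 12536 genes were called, 1.95% higher and 1.15% lower. The median log2 fold change of the 10 genes was 0.03 in the 6 libraries and 0.13 in the 5, against 0.01 and 3.7e-05 over all tested genes. The 5-library values come from dropping a library known to stand apart, and they describe replicates 1 and 2 only.

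**Figure D1:**
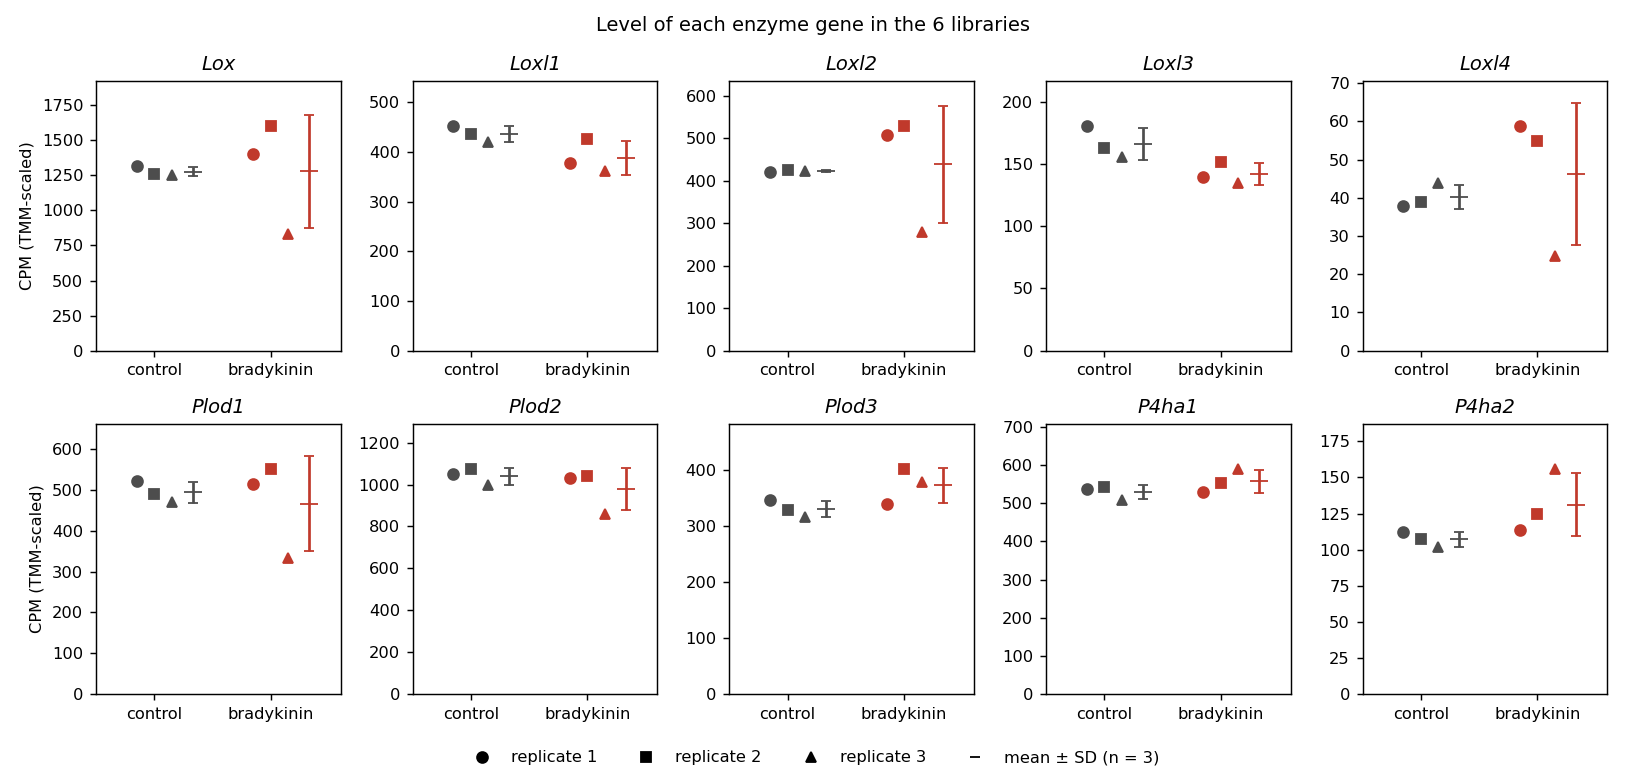
CPM (vertical axis, from 0) of each of the 10 enzyme genes in the 3 control (grey) and 3 bradykinin (red) libraries; the symbol shape gives the replicate and the bar the mean ± SD (n = 3). For Lox, Loxl2 and Loxl4 the bradykinin circle and square lie above and the triangle, replicate 3, below all controls.

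Lysyl oxidase, encoded by Lox, is the enzyme that crosslinks fibrillar collagen and elastin. Lox was at 1314, 1259.6 and 1255 CPM in control replicates 1, 2 and 3 and at 1402, 1602 and 830.3 CPM in bradykinin replicates 1, 2 and 3. The controls lay close together, and the treated libraries lay on both sides of them. The group means were almost equal, 1278 ± 400.4 CPM with bradykinin and 1276 ± 32.7 CPM in controls, at a log2 fold change of 0.0021 ± 0.22 (edgeR adjusted p = 0.998) whose sign turned with the size factors used. Replicate 3 was at 65.1% of the control mean, and replicates 1 and 2 together at 118%. Without replicate 3 Lox rose (0.24 ± 0.05, adjusted p = 0.0286), but this call was lost when control replicate 1, 2 or 3 was left out as well (adjusted p = 0.0898, 0.149 and 0.114), or bradykinin replicate 2 (0.130).

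Loxl2, a family member known for crosslinking the network collagen of basement membranes, followed the same split. It was at 420.2, 426 and 424 CPM in the controls and at 507, 528 and 279 CPM in bradykinin replicates 1, 2 and 3. The controls lay close together (SD 2.77 CPM), and both the pair of high libraries and the low one lay far outside them. The 6-library change was 0.05 ± 0.22 (edgeR adjusted p = 0.943). Without replicate 3 Loxl2 rose (0.29 ± 0.04, adjusted p = 0.00168), and it was still called when any 1 of the other 5 libraries was left out too (adjusted p 0.00142 to 0.0210).

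Loxl4, the member of the family with the lowest counts here, showed the widest split. It was at 37.9, 39.0 and 43.9 CPM in the controls and at 58.8, 54.9 and 24.9 CPM in bradykinin replicates 1, 2 and 3. Replicates 1 and 2 together were at 141% of the control mean and replicate 3 at 61.8%. The 6-library change was 0.20 ± 0.29 (edgeR adjusted p = 0.811). Without replicate 3 it was 0.50 ± 0.08 (adjusted p = 0.00329), a rise that was called in each fit that also dropped 1 further library (adjusted p 0.00420 to 0.0283). The split into replicates 1 and 2 above and replicate 3 below every control was seen in 3 of the 10 enzyme genes and in 5.53% of all tested genes.

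Loxl1, which crosslinks elastin and keeps elastic fibres renewed, did not follow Lox. It was at 453, 436 and 419.9 CPM in the controls and at 377, 427 and 362 CPM with bradykinin. Replicates 1 and 3 lay below all controls, and replicate 2 within their range. The change was -0.17 ± 0.10 (edgeR adjusted p = 0.737), and -0.12 ± 0.06 without replicate 3 (adjusted p = 0.340). Eln, the elastin gene that is its substrate, was at 7.49, 7.34 and 7.16 CPM with bradykinin and 13.6, 11.2 and 12.8 CPM in controls. Eln did not pass in the 6 libraries (-0.78 ± 0.14, adjusted p = 0.437) and fell in the 5 (-0.76 ± 0.14, adjusted p = 0.00992).

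Loxl3, a family member needed for palate and spine development in mice, was at 181, 163 and 155 CPM in the controls and at 139, 152 and 135 CPM with bradykinin. It was the 1 enzyme gene whose treated libraries all lay below all controls, an order found in 8.71% of the tested genes. The change of -0.23 ± 0.10 did not pass (edgeR adjusted p = 0.736), nor did that of -0.19 ± 0.06 without replicate 3 (adjusted p = 0.155). Loxl3 overlaps Htra2 in the RefSeq annotation, and without strand, reads of the overlap cannot be told apart.

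**Figure D2:**
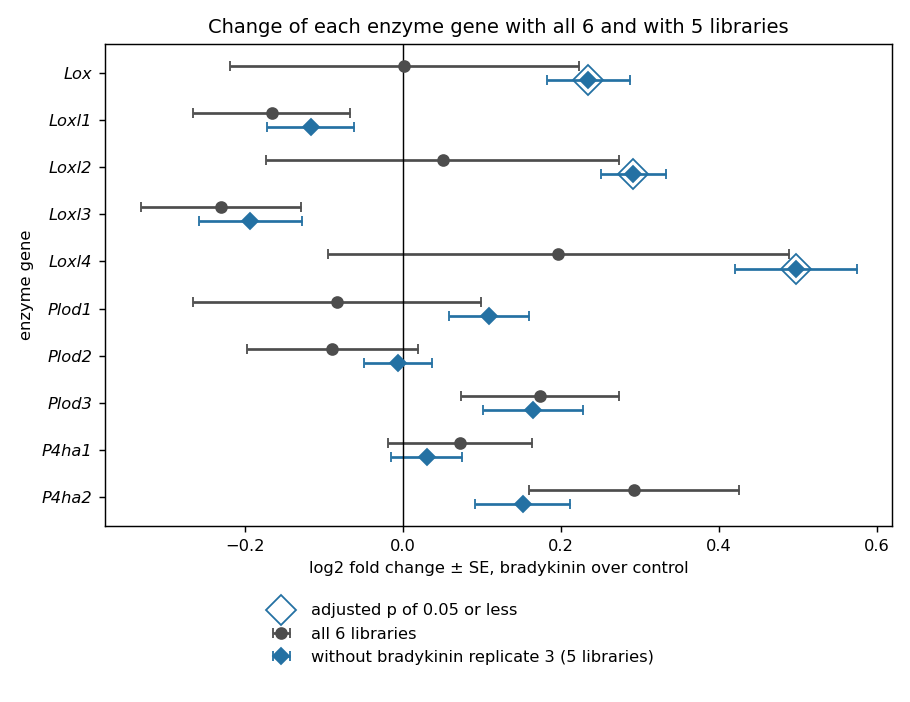
Log2 fold change ± SE (bradykinin over control, horizontal axis) of the 10 enzyme genes with all 6 libraries (grey circles) and without bradykinin replicate 3 (blue diamonds); open diamonds mark an adjusted p of 0.05 or less. Lox, Loxl2 and Loxl4 carry the open diamonds, at 0.24, 0.29 and 0.50.

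The lysyl hydroxylases differ in where on the chain they act. Plod1 encodes the enzyme for lysines in the triple helix. It was at 522, 489 and 472 CPM in the controls and at 515, 551 and 334 CPM in bradykinin replicates 1, 2 and 3. Replicate 3 lay below all controls, at 67.6% of their mean, while replicate 1 lay within their range and replicate 2 above it. The change was -0.08 ± 0.18 (edgeR adjusted p = 0.875) and turned to 0.11 ± 0.05 without replicate 3 (adjusted p = 0.330).

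Plod2, whose product hydroxylates lysines of the telopeptides, the chain ends at which hydroxylysine-derived crosslinks form, was nearly level. It was at 1048, 1073 and 996 CPM in the controls and at 1031, 1039.5 and 861 CPM with bradykinin. Replicates 1 and 2 lay within the range of the controls, and replicate 3 lay below it, at 82.9% of their mean. The change was -0.09 ± 0.11 (edgeR adjusted p = 0.773), with a 95% interval from -0.34 to 0.16. Without replicate 3, the low library, it was -0.01 ± 0.04, with an interval from -0.10 to 0.09.

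Plod3, whose product also adds glucose to hydroxylysine-linked galactose, was at 346, 329 and 317 CPM in the controls and at 339, 401 and 378 CPM with bradykinin. Replicates 2 and 3 lay above all controls, and replicate 1 within their range. The change of 0.17 ± 0.10 did not pass (edgeR adjusted p = 0.737), nor did that without replicate 3 (0.17 ± 0.06, adjusted p = 0.220). Plod3 overlaps Znhit1 in the RefSeq annotation, so its reads carry the same doubt as those of Loxl3.

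P4ha1 and P4ha2 encode catalytic subunits that pair with the P4hb protein, a disulfide isomerase, to form the collagen prolyl 4-hydroxylase. P4ha1 was at 537, 543 and 509 CPM in the controls and at 529, 553 and 589 CPM in bradykinin replicates 1, 2 and 3. Replicate 1 lay within the range of the controls and replicates 2 and 3 above it. The change was 0.07 ± 0.09 (edgeR adjusted p = 0.777), and 0.03 ± 0.04 without replicate 3 (adjusted p = 0.823). P4ha2 was at 112, 107 and 102 CPM in the controls and at 114, 124 and 156 CPM with bradykinin. It was the 1 enzyme gene whose treated libraries all lay above all controls, by a small margin in replicate 1 and at 145% of the control mean in replicate 3; 8.84% of the tested genes had that order. The change was 0.29 ± 0.13 (adjusted p = 0.737), and smaller without replicate 3 (0.15 ± 0.06, adjusted p = 0.239).

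Several of these genes, P4ha1, P4ha2, Plod2, Lox and Loxl2 among them, are known in human and mouse cells to be induced in low oxygen by hypoxia-inducible factors, which bind the cores ACGTG and GCGTG. The promoter windows below, from 250 bases before to 50 after the start of the gene (RefSeq, GRCr8), show these cores in capitals on either strand, so that CACGT and CACGC also count. They are given for P4ha2 and P4ha1, the enzyme genes whose highest level over the 6 libraries was in bradykinin replicate 3. Loxl4 is added as the only gene called without that library whose window was matched. Their places are chr10:38743644-38743943 (plus strand), chr20:27844796-27845095 (plus strand) and chr1:251365528-251365827 (minus strand), and GRCr8 is not the build of the counts.
P4ha2: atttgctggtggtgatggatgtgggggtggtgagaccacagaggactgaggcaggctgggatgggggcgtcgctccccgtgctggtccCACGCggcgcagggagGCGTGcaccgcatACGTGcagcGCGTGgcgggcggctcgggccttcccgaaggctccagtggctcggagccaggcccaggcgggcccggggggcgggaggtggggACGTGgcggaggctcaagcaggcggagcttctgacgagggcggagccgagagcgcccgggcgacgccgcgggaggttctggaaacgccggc
P4ha1: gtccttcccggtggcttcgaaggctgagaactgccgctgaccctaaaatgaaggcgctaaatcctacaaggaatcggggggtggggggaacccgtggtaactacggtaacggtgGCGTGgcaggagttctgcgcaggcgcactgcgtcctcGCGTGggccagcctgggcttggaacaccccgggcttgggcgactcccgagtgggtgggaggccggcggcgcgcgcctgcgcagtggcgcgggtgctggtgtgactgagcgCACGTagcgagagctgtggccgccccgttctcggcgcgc
Loxl4: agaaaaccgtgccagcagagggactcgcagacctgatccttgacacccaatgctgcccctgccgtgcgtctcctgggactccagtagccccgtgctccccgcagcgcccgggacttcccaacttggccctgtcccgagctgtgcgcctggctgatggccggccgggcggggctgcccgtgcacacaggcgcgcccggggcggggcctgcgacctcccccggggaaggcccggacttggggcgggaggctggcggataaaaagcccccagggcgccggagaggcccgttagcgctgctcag
The window of P4ha2 held 2 ACGTG and 3 GCGTG cores, that of P4ha1 1 and 2, and that of Loxl4 0 of either. Among the 8 enzyme genes with a window in the table, 3 held ACGTG (P4ha1, P4ha2 and Plod2) and 6 held GCGTG. The window of Plod2, not printed here, held 2 ACGTG and 2 GCGTG cores, more than that of P4ha1. Plod2 was below all controls in replicate 3, at 82.9% of their mean, so cores were not confined to genes high in that library. Over the windows of 9482 tested genes, 26.3% held ACGTG and 50.7% held GCGTG, and 2.94% held 5 or more of both together, as P4ha2 did; over all 33469 windows the first 2 shares were 19.3% and 29.7%. Such a match is a description of letters only. Lox and Loxl2 had no entry in the table.

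**Figure D3:**
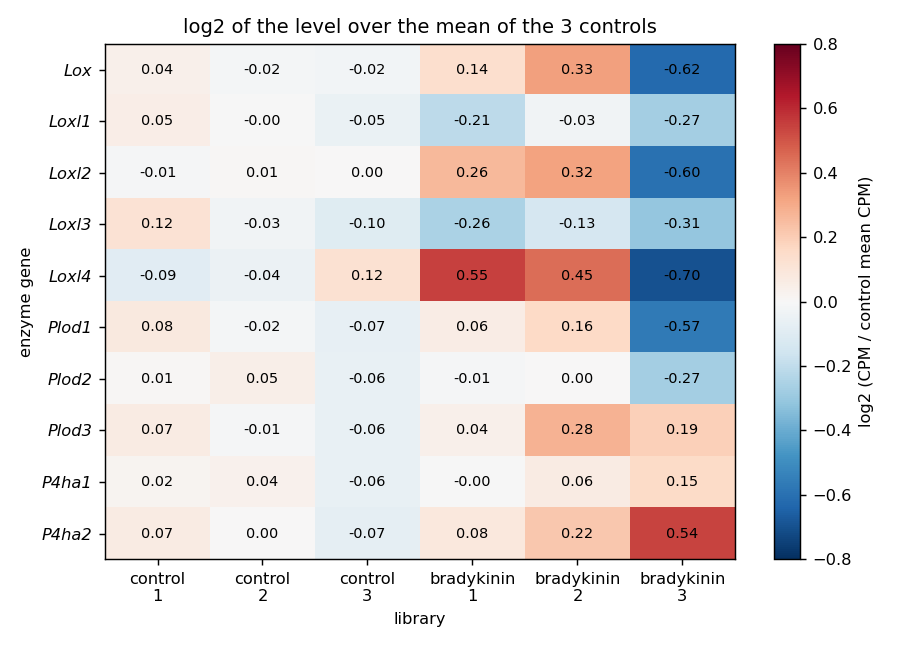
Log2 of the CPM of each enzyme gene over the mean of the 3 controls, for the 6 libraries in columns (blue below, red above, values printed in the cells). Bradykinin replicate 3 runs from -0.70 (Loxl4) to 0.54 (P4ha2), and the controls stay within 0.12 of 0.

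Read across the set, bradykinin replicate 3 lay outside the range of the controls for every enzyme gene. It was below all controls in 7, the 5 lysyl oxidase genes with Plod1 and Plod2, and above all controls in 3, Plod3, P4ha1 and P4ha2. Over all tested genes, 41.9% lay below and 42.7% above all controls in this library. Controls varied little: their coefficient of variation ran from 0.654% (Loxl2) to 7.92% (Loxl4), against 5.47% (P4ha1) to 40.2% (Loxl4) in the treated libraries. By the root mean square difference of centred log2 CPM over the 6 libraries, the closest pairs of enzyme genes were Loxl1 with Loxl3 (0.050), Lox with Loxl2 (0.054) and Lox with Plod1 (0.076).

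By the same measure, the genes outside the set nearest to Lox, among 9808 candidates, were Limch1 (0.020), Gtf3c2 (0.052) and Masp1 (0.056). Limch1, an actomyosin regulator, was at 36.7, 34.1 and 34.2 CPM in the controls and at 38.3, 44.8 and 22.3 CPM with bradykinin. Limch1 was picked for its likeness to Lox over these same libraries, so their shared order of libraries is no separate result. Nearest to Plod2 were Fmr1 (0.015), Steap3 (0.018) and Scarb2 (0.020), and nearest to P4ha1 were Acad9 (0.019), Zc3hc1 (0.021) and Zfp523 (0.022). Plod2 and P4ha1 themselves varied little, by 0.105 and 0.064 around their own means, against 0.291 for Lox.

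Ratios of 2 genes within a library do not depend on its scaling, and 4 were compared by a two-sided exact permutation test, in which 3 against 3 libraries cannot give a p below 0.10. The P4ha1 to P4ha2 ratio of counts was 4.79, 5.06 and 5.0 in the controls and 4.66, 4.45 and 3.78 with bradykinin. All treated libraries were lower, by a log2 difference of -0.21 ± 0.09, at the smallest possible p (exact permutation p = 0.10, 0.40 adjusted over the 4 ratios). The Plod2 to Plod1 ratio, which sets the telopeptide enzyme beside the helical one, was 2.01, 2.2 and 2.11 in controls and 2.00, 1.89 and 2.58 with bradykinin. Replicates 1 and 2 were below and replicate 3 above all controls, and the groups did not separate (exact permutation p = 1.00).

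The Loxl1 to Lox ratio was 0.345, 0.346 and 0.335 in controls and 0.269, 0.267 and 0.436 with bradykinin (exact permutation p = 0.80). Replicates 1 and 2 agreed closely with each other and lay below the controls, and replicate 3 lay above them. Lox relative to Col1a1, the main fibrillar collagen gene among its substrates, was 0.0295, 0.0299 and 0.0303 in controls and 0.0330, 0.0329 and 0.0221 with bradykinin (exact permutation p = 1.00). Adjusted over the 4 ratios, these p and that of Plod2 to Plod1 were 1.00. Without replicate 3 the log2 differences were -0.35 for Loxl1 to Lox, 0.14 for Lox to Col1a1 and -0.11 for Plod2 to Plod1.

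**Figure D4:**
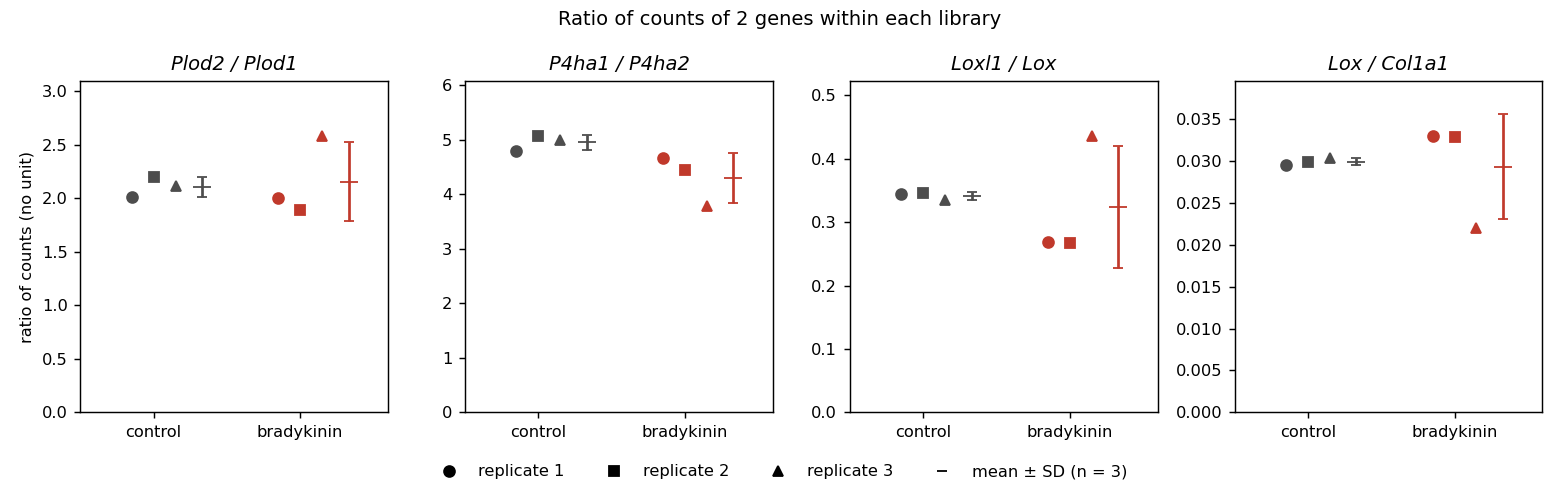
Ratio of the counts of 2 genes within each library (vertical axes from 0, no unit), controls in grey and bradykinin in red, symbol shape by replicate, bars mean ± SD (n = 3). P4ha1 over P4ha2 was 3.78 to 4.66 with bradykinin and 4.79 to 5.06 in controls, while the other ratios had replicate 3 on the far side of the controls from replicates 1 and 2.

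Partners of the hydroxylases in the endoplasmic reticulum were examined through 16 tested genes. In the 6 libraries 0 passed and the median was 0.06, against 0.01 over all tested genes. A positive log2 fold change was seen in 12, beside 6372 of all 12413 tested genes. Replicate 3 was above the control mean in 12, beside 6245 of the 12413, at a median log2 of 0.19 (0.0040 over all tested genes). Without replicate 3 the median was 0.03, and 1 of 16, P4hb, rose, beside 1.95% of all tested genes. P4hb was at 1481, 1458 and 1447 CPM in the controls and at 1605, 1721 and 1872 CPM with bradykinin, with no overlap (0.25 ± 0.10, edgeR adjusted p = 0.714; 0.19 ± 0.04 without replicate 3, adjusted p = 0.0291). P4ha3, the remaining alpha subunit gene, was at 285, 311 and 304 CPM in the controls and 322, 328 and 245 CPM with bradykinin (edgeR adjusted p = 0.981). Its replicate 3 lay below the controls, as in 41.9% of all tested genes. Ppib, the cyclophilin of the prolyl 3-hydroxylation complex, was at 178, 187 and 298 CPM with bradykinin and 175 ± 6.08 CPM in controls (0.34 ± 0.20). Fkbp14, a prolyl isomerase, stood at -0.18 ± 0.11. Leprotl1, which has no known part in collagen hydroxylation, was on the list and stood at 0.23 ± 0.13.

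Of 14 tested genes of procollagen processing and other crosslinking, 0 passed in the 6 libraries (median -0.05) and 0 of 15 without replicate 3. Efemp2, the fibulin that brings lysyl oxidase to elastic fibres, was at 314, 336 and 490.4 CPM with bradykinin and 311 ± 9.68 CPM in controls (0.29 ± 0.17). Fbln5, another fibulin of elastic fibre assembly, was at 78.8 ± 3.17 and 87.0 ± 2.14 CPM (-0.14 ± 0.09). Pxdn, which forms the sulfilimine crosslink of basement membrane collagen, was at 445, 509 and 186 CPM with bradykinin and 503 ± 16.9 CPM in controls (-0.40 ± 0.32). Adamts2, which removes procollagen amino-propeptides, stood at -0.23 ± 0.16. The edgeR adjusted p of these 4 was 0.737.

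Among 21 tested substrate genes, 0 passed in the 6 libraries. Without replicate 3, 6 rose and 3 fell, beside 1.95% and 1.15% of all tested genes. Col5a1, Col6a3 and Col12a1 were among those that rose. In each, replicates 1 and 2 lay above and replicate 3 below all controls, as in 5.53% of all tested genes. Col6a3, a subunit of beaded collagen filaments, was at 4911, 5142 and 2529 CPM with bradykinin and 3702 ± 53.4 CPM in controls. The others that rose were Col6a1, Col6a2 and Col15a1 (1.26 ± 0.07), and those that fell were Eln, Col11a1 (-0.22 ± 0.04) and Col14a1 (-0.36 ± 0.04, edgeR adjusted p = 0.000662). Col27a1, a minor fibrillar collagen gene, had -0.39 ± 0.14 in the 6 libraries (adjusted p = 0.714).

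Cofactor supply was examined through 15 tested genes, of which 0 passed in the 6 libraries. Without replicate 3, Slc23a2, an ascorbate transporter, rose (82.6 and 84.7 CPM in bradykinin replicates 1 and 2, 68.5 ± 4.48 CPM in controls, 0.29 ± 0.06, edgeR adjusted p = 0.0293). In replicate 3 it was at 47.2 CPM, below the controls, as were 41.9% of all tested genes. Slc2a3, a transporter of glucose and of oxidised ascorbate, fell in the fit without replicate 3 (-0.23 ± 0.06, edgeR adjusted p = 0.0457). It was at 106, 101 and 103 CPM with bradykinin, replicate 3 included, and at 115 to 126 CPM in controls. Atp7a, the pump that loads lysyl oxidases with copper, was at 23.5, 23.7 and 10.5 CPM with bradykinin and 24.6 ± 1.11 CPM in controls. Copper uptake and delivery genes Slc31a1 and Atox1 stood at -0.21 ± 0.13 and 0.81 ± 0.26 in the 6 libraries, and Gsto1, a dehydroascorbate reductase, at 0.39 ± 0.22, with adjusted p of 0.737, 0.697 and 0.737.

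The hypoxia response list, taken without the 6 enzyme genes it shares with the set, had 0 of 29 tested genes passing in the 6 libraries, at a median of 0.12. Without replicate 3, 3 rose and 0 fell, beside 1.95% and 1.15% of all tested genes. The 3 were Hif1a, which encodes the oxygen-regulated factor, and the glycolytic genes Ldha and Pgk1. Pgk1 was at 581, 614 and 892 CPM with bradykinin and 523 ± 8.99 CPM in controls, so it was highest in replicate 3. Hif1a (224, 232 and 176 CPM, against 193 to 205 CPM) was lowest there. Over all tested genes, 42.7% lay above and 41.9% below all controls in replicate 3. Egln1, an oxygen sensor, had 0.43 ± 0.17 and Pdk1, a kinase that restrains pyruvate oxidation, 0.25 ± 0.10. Epas1, which encodes a second hypoxia-inducible factor, had -0.57 ± 0.17 (edgeR adjusted p = 0.678).

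Genes linked to transforming growth factor beta, a known inducer of Lox and Plod2 in fibroblasts, did not pass in the 6 libraries (0 of 18, median -0.09). Without replicate 3, Tgfbi, a matrix protein gene, was among those that rose, and Ccn2, Tgfb2, Tgfb3, Acta2 and Tagln fell. In replicate 3, Ccn2 (2998 CPM, against 2745 to 2857 CPM) and Tagln (1538 CPM, against 1425 to 1494 CPM) lay above all controls. Tgfb2, Tgfb3 and, by a small margin, Acta2 lay below them there. Tgfb2, a ligand gene, was at 31.6, 30.4 and 29.2 CPM against 41.4 ± 1.72 CPM (-0.44 ± 0.10, edgeR adjusted p = 0.564 in the 6 libraries). Tgfb1, another ligand gene, had 0.38 ± 0.14 (adjusted p = 0.714).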

How the data were processed

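Per the labels, polyadenylated RNA of 6 libraries was sequenced. The authors deposited unnormalized counts, all whole, by Ensembl gene. The submitters' processing notes name RSEM 1.3.3, Bowtie2 2.4.5, HISAT2 2.2.1, fastp 0.23.2, DESeq2 1.34.0, SAMtools and build Rnor_6.0. RSEM shares out reads among similar genes, and how its estimates were rounded is not stated. No strand setting is given. Symbols came from the table's Entrez identifiers and a RefSeq table of GRCr8 (15073 rows matched).

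Counts were compared with edgeR 4.0.16 (R 4.3.3): filterByExpr, TMM, a two-sided quasi-likelihood F test, and Benjamini-Hochberg adjustment over all tested genes. SE is the log2 fold change over the root of its F. CPM divide counts by the TMM-scaled size over tested genes, with mean ± SD over 3 libraries. Log2 CPM used a prior count of 2. The script was tested on simulated data. DESeq2 1.42.0, limma-voom (limma 3.58.1) and the other alternatives are in the closing section. SciPy 1.17.1 gave the exact permutation tests.

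The enzyme genes and the 15 gene lists were chosen with earlier results of these data known. The rule named all 10 enzyme genes, up to 4 genes of smallest p per list and 3 alike genes each for Lox, Plod2 and P4ha1; of marker lists only sums and a few markers are given. P4ha3, Atp7a and the genes called without bradykinin replicate 3 were named after their values were seen. A listed gene that the rule named is not reported here. Same replicate numbers did not pair the samples (correlations of deviations across genes -0.09, -0.02 and -0.05).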

Additional observations from a re-analysis of the deposited data

How the results depend on the processing

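Over all tested genes the 6-library count of 0 became 44 with DESeq2 (25 higher, 19 lower) and 388 without bradykinin replicate 3, and it was 0 with RLE size factors, library totals, limma-voom, the replicate block, without the filter or with one at 1 CPM in at least 3 libraries, and without any other single library. Without bradykinin replicate 3 it was 374 with RLE size factors, 347 with library totals (162 higher, 185 lower, against 244 and 144) and 347 with DESeq2. For the 10 enzyme genes the count of 0 became 3 without bradykinin replicate 3, also with RLE size factors, library totals or DESeq2. For the other listed genes it became 4 with DESeq2 and 29 without that library (28, 23 and 27 with RLE size factors, library totals and DESeq2). In fits added after seeing the data, which left out bradykinin replicate 3 and also bradykinin replicate 1 or 2, or control replicate 1, 2 or 3, the counts were 300, 333, 145, 138 and 209 over all genes, 4, 3, 2, 2 and 2 of the enzyme genes, and 26, 23, 14, 14 and 17 of the other listed genes. With 1 bradykinin library left, that library is assumed to vary like the controls. In those fits Loxl2 and Loxl4 were called throughout, Lox and Plod3 (0.28) only without bradykinin replicate 1, and Loxl1 fell (-0.21) only without bradykinin replicate 2.

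Directions of small changes turned. Lox (0.0021) was -0.0038 with RLE size factors and with DESeq2, -0.0061 with library totals, -0.051 with limma-voom, and -0.20 to 0.33 over the fits that left out libraries, with -0.07 without bradykinin replicate 1 and -0.01 without control replicate 2 or 3. Loxl2 (0.05), at most 0.32, was -0.0047 with limma-voom, and -0.07 and -0.11 without bradykinin replicate 1 or 2. Loxl4 (0.20), at most 0.56, was -0.014 without bradykinin replicate 1. Plod1 (-0.08), at least -0.22, was 0.11 without bradykinin replicate 3, 0.11, 0.077 and 0.11 there with RLE size factors, library totals and DESeq2, and 0.16, 0.06, 0.15, 0.10 and 0.08 in the 5 added fits. Plod2 (-0.09), at least -0.14, was 0.00055 and 0.018 in the added fits that dropped bradykinin replicate 1 or control replicate 2. P4ha1 (0.07) was -0.0017 without bradykinin replicate 3 by library totals and -0.0052 in the added fit without bradykinin replicate 2. The cause was not tested.

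With the replicate number as a block, 0 genes were called over all genes, the enzyme genes and the other lists, and Lox was at -0.051 and Loxl2 at -0.0033. As far as is stated, same-numbered libraries share only a number. Loxl1, Loxl3, Plod3 and P4ha2 kept their direction under every alternative run. The log2 differences of the 4 count ratios ran over -0.11 to 0.11 for Plod2 to Plod1 and -0.27 to -0.12 for P4ha1 to P4ha2. They ran over -0.35 to 0.0028 for Loxl1 to Lox and -0.15 to 0.14 for Lox to Col1a1. Only P4ha1 to P4ha2 kept its direction. All moves were less than 1 SD within groups, but bradykinin replicate 3 widens that SD, so this does not show stable ratios.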
